A study of Mus musculus with 4 samples.

Results

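The FoxO transcription factors Foxo1, Foxo3 and Foxo4 and 7 genes of defence against oxidative stress, Sod1, Sod2, Cat, Gpx1, Txnip, Sesn3 and Atm, were followed in the messenger RNA of mouse haematopoietic stem cells (HSCs). The genes were chosen by name, and each of the 10 matched a single feature among the 34315 features of the deposited table. The knockout-labelled arm consists of freshly sorted HSCs labelled as Dnmt3a knockout, without that de novo methyltransferase, and it enters only as the authors' mean count per feature, log2 fold change and p-value. The sources used here give neither the means of deletion nor the age of the mice. The wild-type group consists of 4 libraries of C57BL/6 bone marrow HSCs, sorted as dye-excluding side population cells with the KSL-CD150+ surface phenotype. The labels describe all 4 as technical replicates of biological replicate 1, while the series' design text speaks of duplicates, so what separates these libraries is not settled here.

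FoxO factors bind forkhead motifs in DNA, and growth factor signalling through the kinase Akt moves them out of the nucleus. When signalling is low they enter the nucleus and activate genes for cell cycle arrest, for antioxidant enzymes and for survival under stress. In mice, loss of FoxO factors or of Atm raises reactive oxygen species in HSCs and drives them out of quiescence. Superoxide dismutases turn superoxide into hydrogen peroxide, which catalase, glutathione peroxidases and peroxiredoxins remove.

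RefSeq promoter windows were at hand for 9 of the 10 genes, running from 250 bases before the start to 50 bases after it (GRCm38.p6). Windows are shown for Foxo1 and Foxo3, which stood on opposite sides of wild type, for the stress genes Txnip and Sesn3, and for Sod1. Capitals mark matches to GTAAACA (forkhead), CACGTG (E-box) or TGACNNNGC (antioxidant response element), searched on both strands, so a match on the minus strand shows as its reverse complement. Foxo1 lies at chr3:52268087-52268386 (plus strand), Foxo3 at chr10:42276646-42276945 (minus strand), Txnip at chr3:96557707-96558006 (plus strand), Sesn3 at chr9:14276051-14276350 (plus strand) and Sod1 at chr16:90220512-90220811 (plus strand).
Foxo1: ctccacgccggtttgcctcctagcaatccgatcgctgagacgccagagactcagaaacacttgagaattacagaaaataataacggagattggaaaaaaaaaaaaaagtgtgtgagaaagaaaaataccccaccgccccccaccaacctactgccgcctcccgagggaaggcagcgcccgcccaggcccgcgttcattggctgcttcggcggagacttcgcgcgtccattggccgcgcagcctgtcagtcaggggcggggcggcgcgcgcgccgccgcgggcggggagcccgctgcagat
Foxo3: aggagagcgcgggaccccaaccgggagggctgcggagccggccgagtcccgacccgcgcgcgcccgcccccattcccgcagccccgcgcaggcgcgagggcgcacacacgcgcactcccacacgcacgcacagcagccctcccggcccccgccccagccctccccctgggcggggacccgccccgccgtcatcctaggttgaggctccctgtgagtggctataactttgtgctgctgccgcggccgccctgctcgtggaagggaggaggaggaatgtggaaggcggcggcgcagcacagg
Txnip: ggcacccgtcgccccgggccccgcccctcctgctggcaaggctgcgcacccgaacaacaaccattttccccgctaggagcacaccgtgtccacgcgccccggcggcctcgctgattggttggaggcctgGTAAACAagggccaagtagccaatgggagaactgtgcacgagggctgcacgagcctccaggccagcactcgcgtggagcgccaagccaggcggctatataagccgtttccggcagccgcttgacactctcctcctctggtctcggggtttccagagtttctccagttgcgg
Sesn3: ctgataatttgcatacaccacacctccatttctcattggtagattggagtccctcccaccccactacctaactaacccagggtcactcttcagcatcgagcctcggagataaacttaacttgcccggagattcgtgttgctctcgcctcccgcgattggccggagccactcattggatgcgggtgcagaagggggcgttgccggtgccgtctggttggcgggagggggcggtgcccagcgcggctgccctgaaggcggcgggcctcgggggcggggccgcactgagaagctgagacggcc
Sod1: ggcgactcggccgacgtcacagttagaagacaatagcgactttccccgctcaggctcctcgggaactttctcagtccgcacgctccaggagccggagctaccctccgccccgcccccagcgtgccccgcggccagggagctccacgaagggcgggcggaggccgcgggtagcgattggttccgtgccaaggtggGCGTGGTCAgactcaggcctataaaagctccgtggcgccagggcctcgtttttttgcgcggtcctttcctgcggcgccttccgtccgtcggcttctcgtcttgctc

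Among these windows, the forkhead letters occurred only in that of Txnip, with their first base 121 bases before the start. They occur in 3.65% of the 32851 windows in the table. The antioxidant response element letters occurred only in the Sod1 window, 56 bases before the start and on the minus strand, and they occur in 12.4% of all windows. The E-box letters, present in 7.15% of all windows, occurred in none of the 9. These matches describe the windows and show no binding. The windows of the 9 genes held 11 to 35 CpG dinucleotides, the sites that DNA methyltransferases act on, with a median of 24. Over all windows the median was 7 and the upper quartile 20. All windows were not limited to genes expressed in HSCs, so this contrast is not particular to these genes. Foxo3 had 35, Sod1 34 and Foxo1 31, while Cat and Gpx1 had 11 each.

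Wild-type library totals were 40709659 to 47408552 counts. The 4 libraries form pairs, 1 with 2 (called pair 1/2) and 3 with 4 (called pair 3/4), within which counts differed by little more than sampling, with median chi-square values per degree of freedom of 0.762 and 0.681 where simulated counting noise gave 0.455. Across these pairs the lowest median was 12, so each pair is treated as 1 averaged sample. Dnmt3a itself had a level of 857 normalised counts per kb of exon in the knockout-labelled arm, against 549 and 530 in wild-type pair 3/4 and 837 and 872 in pair 1/2, so the knockout mean lay within the wild-type range, and a whole-gene count does not check the label if shortened transcripts remain. Marker genes were counted as called at an adjusted p below 0.05 in the authors' deposited table. Over all 17684 features averaging at least 10 normalised counts over both arms, 3.72% were called higher and 4.3% lower. Stem cell markers were present in both arms: 11 of 11 were measured, none was called, and together they held 0.336% of counts in the knockout-labelled arm and 0.377% to 0.441% in wild type. Of the 11, 8 had a positive log2 fold change and 3 a negative one in the authors' deposited table, with a median of 0.50. The largest rise there was 5.41-fold, for Procr, and the largest fall 3.63-fold, for Hlf. Markers of other cells were not equally spread. Erythroid markers held 0.0370% of counts in the knockout-labelled arm and 0.105% to 0.132% in wild type, with 6 of 12 called lower. Neutrophil markers held 0.0680% of counts in the knockout-labelled arm and 0.0371% to 0.134% in wild type, with 0 of 10 called. Immediate early genes held 0.412% in the knockout-labelled arm and 0.0623% to 0.718% in wild type, with 3 of 18 called higher and 3 lower. Macrophage markers were called lower for 4 of 8, mast cell and basophil markers for 4 of 6 and megakaryocyte markers for 3 of 7. The megakaryocyte list as a whole did not hold fewer counts, with 0.12% in the knockout-labelled arm and 0.0963% to 0.107% in wild type. That share rests largely on Vwf, with 59981 normalised counts in the knockout-labelled arm, 25861 in pair 3/4 and 16618 in pair 1/2. Itga2b, the next largest in the knockout-labelled arm, had 4344 there, 14909 in pair 3/4 and 18289 in pair 1/2. Of the 7 megakaryocyte genes, 2 had a positive log2 fold change and 5 a negative one in the authors' deposited table. Stromal and endothelial markers were called lower for 2 of 8 and B cell markers for 1 of 4 measured. Of the 2 measured T cell markers, 0 were called. Pax5 and Cd3e had 0 reads in the knockout-labelled arm, but both averaged below 10 normalised counts over both arms, so they were not counted as measured. The part of these markers in the values below was not tested, and in such bulk samples fewer cells of a type cannot be told apart from less RNA per cell.

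In wild-type HSCs the 10 genes spanned a 65.2-fold range of levels. A level here is the size-factor-normalised read count per kb of exon, ranked over 12778 features with a gene symbol and at least 10 normalised counts. Txnip, which binds and inhibits thioredoxin and limits glucose uptake, ranked 43rd. The glutathione peroxidase Gpx1 ranked 79th and the cytosolic copper and zinc superoxide dismutase Sod1 86th. The catalase gene Cat ranked 1151st and Foxo3 2132nd. Foxo4, the mitochondrial manganese superoxide dismutase Sod2, the sestrin Sesn3 and the DNA damage kinase Atm followed at ranks 3888, 4080, 4099 and 4707. Foxo1 came last of the 10, at rank 7132. Gpx1 and Sod1 overlapped in level across libraries, as did the neighbours Foxo4 and Sod2, Sod2 and Sesn3, and Sesn3 and Atm, so the order within each of these neighbouring pairs is not resolved. Foxo4 stood above Atm in every library.

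**Figure D1:**
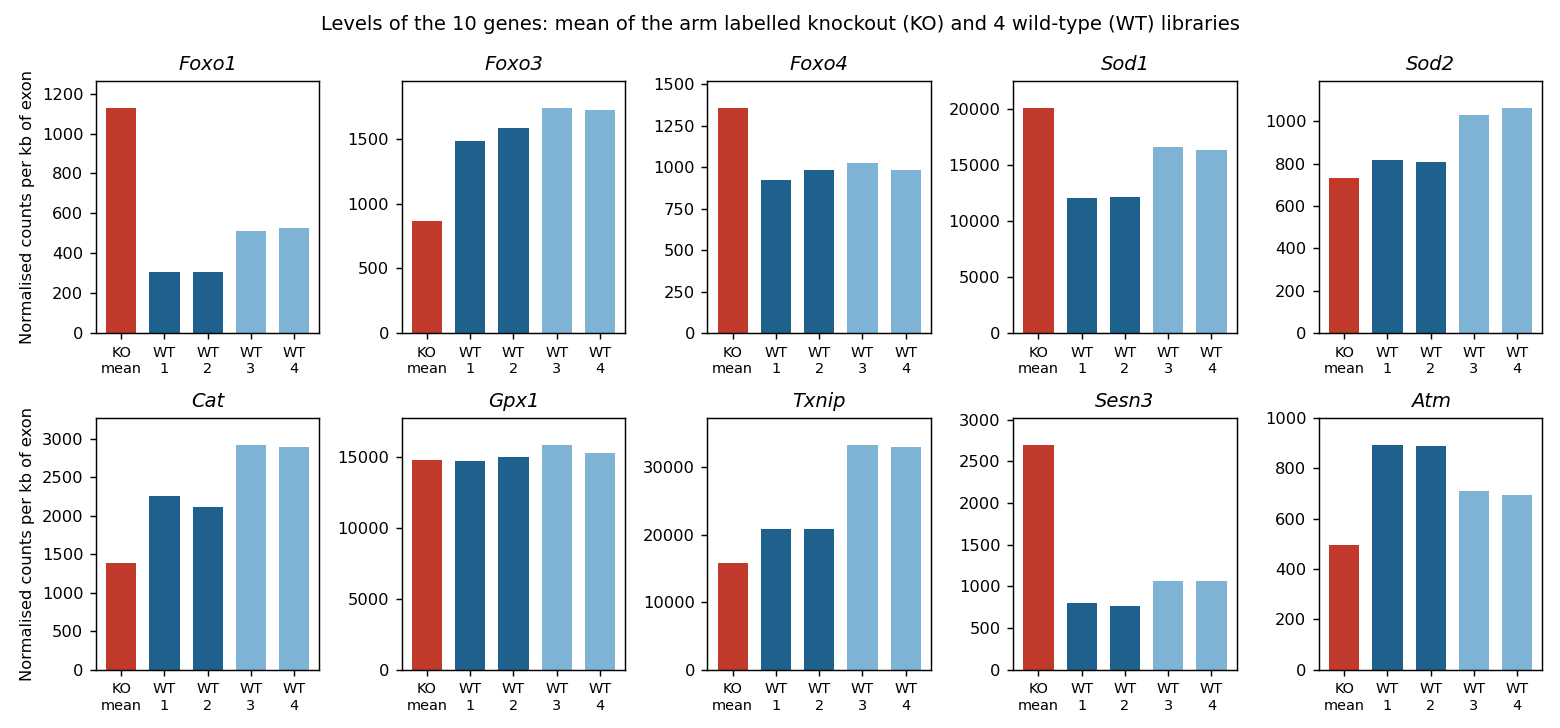
Levels of the 10 genes in normalised counts per kb of exon (y axes start at 0 and differ between panels): the red bar is the authors' mean of the knockout-labelled arm on the wild-type scale, dark blue bars are wild-type pair 1/2 and light blue bars are wild-type pair 3/4. Foxo1 and Sesn3 stand above all 4 wild-type libraries in the knockout-labelled arm, at 1128 and 2699, and Foxo3, Cat, Txnip, Sod2 and Atm stand below them.

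Setting both arms side by side asks whether these genes differ between HSCs without Dnmt3a, as labelled, and normal HSCs. None of the 10 was called (adjusted p below 0.05) by the authors' deposited table, where 6.84% of 21778 tested features were, 3.15% higher and 3.7% lower, and 3.57% of the 8375 with a mean of at least 1000 normalised counts, a level that all 10 genes reached. The lowest adjusted p of the 10 in the authors' deposited table was 0.341, for Sesn3, and unadjusted p-values are not at hand. The smallest rise called at that level was 5.69-fold and the smallest fall 5.72-fold according to the authors' deposited table. Changes of the size seen in these genes were therefore below what that table called. In the authors' deposited table, 4 genes had a positive log2 fold change and 6 a negative one, with a median of -0.19, against 0.15 over the 8375 features. The knockout mean lay outside the range of the 4 wild-type libraries for 9 of the 10 genes, above it for 4 and below it for 5, where 84.7% of the 8375 features did so. This share is near the background and is no result about these genes.

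Foxo1 and Foxo3 stood on opposite sides of wild type. Foxo1 (chromosome 3, 52072259 to 52154031, mm9) had a level of 1128 in the knockout-labelled arm, against 513 and 528 in wild-type pair 3/4 and 306 and 304 in pair 1/2. The knockout mean lay above all 4 libraries, which themselves differed between pairs. The log2 fold change was 1.45 in the authors' deposited table, with an adjusted p of 0.389, and 12.7% of the 8375 features had a larger change in either direction. Foxo3, the FoxO factor best known for HSC maintenance in mice (chromosome 10, 41905592 to 41996548), had a level of 866 in the knockout-labelled arm, against 1741 and 1725 in wild-type pair 3/4 and 1489 and 1589 in pair 1/2. The knockout mean lay below all 4 libraries, and both wild-type pairs were close to each other. Its log2 fold change was -0.92 in the authors' deposited table, with an adjusted p of 0.690, and 28.8% of the features had a larger change. Foxo4 (chromosome X, 98449867 to 98456212) had a level of 1356 in the knockout-labelled arm, against 1027 and 982 in wild-type pair 3/4 and 923 and 985 in pair 1/2. Its log2 fold change was 0.47 at adjusted p = 0.901 by the authors' deposited table. Reads of Foxo4 cannot be separated from those of the antisense feature HAG_045039, which overlaps it and had 67.4% of its wild-type count. The fourth family member, Foxo6, was near silent, at 26 normalised counts in the knockout-labelled arm and 19.4 in each wild-type pair.

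Because Foxo1 and Foxo3 stood apart in opposite directions, the balance within the family was also examined. A ratio of levels within a library does not depend on how libraries are scaled, and this ratio was chosen after the values were seen. For the knockout-labelled arm it is a ratio of the authors' mean counts, which can depend on how the libraries behind that mean were weighted. Foxo1 over Foxo3 was 1.30 in the knockout-labelled arm, against 0.294 and 0.306 in wild-type pair 3/4 and 0.206 and 0.192 in pair 1/2. The knockout ratio was 4.34-fold that of pair 3/4 and 6.56-fold that of pair 1/2. Of the summed level of Foxo1, Foxo3 and Foxo4, Foxo3 made up 25.9% in the knockout-labelled arm and 53.1% to 55.2% in wild type. Foxo1 made up 33.7% in the knockout-labelled arm and 10.6% to 16.3% in wild type, and Foxo4 40.5% in the knockout-labelled arm and 30.4% to 34.2% in wild type. The summed level itself was 3350 in the knockout-labelled arm, against 3258 in pair 3/4 and 2798 in pair 1/2. With 1 mean for the knockout-labelled arm, these ratios have no test.

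**Figure D2:**
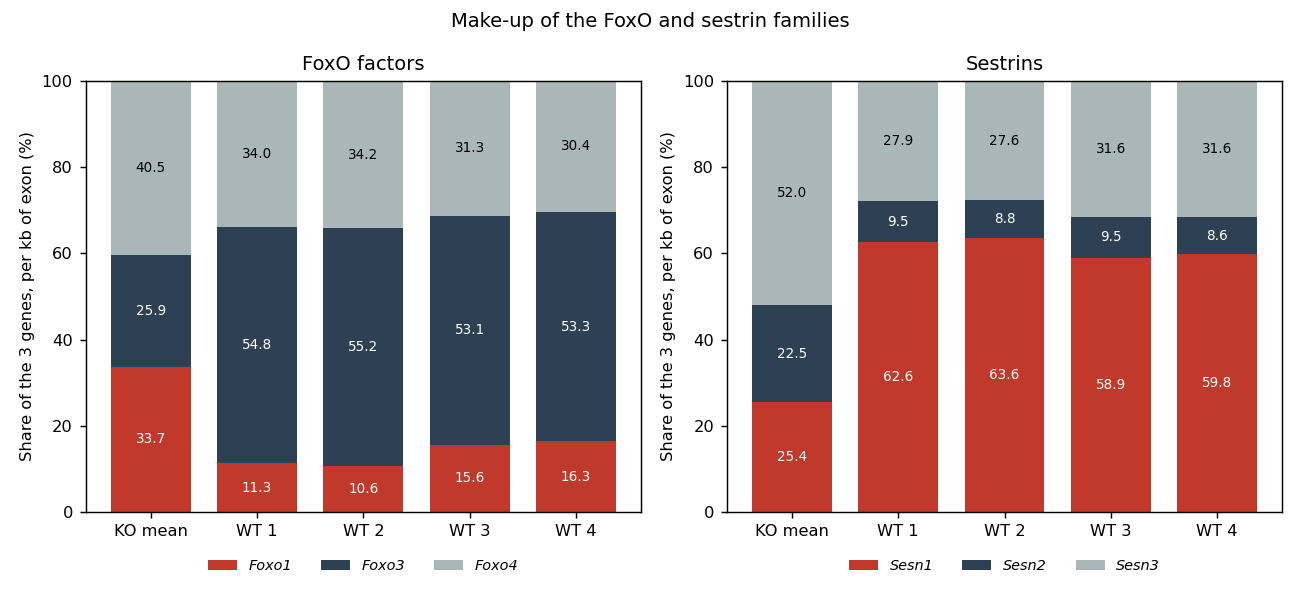
Share of each gene in the summed level per kb of exon of its family (y axis, %), for the FoxO factors (left) and the sestrins (right), in the mean of the knockout-labelled arm and in wild-type libraries 1 to 4. Foxo3 makes up 25.9% of the FoxO total in the knockout-labelled arm and 53.1% to 55.2% in wild type, and Sesn1 makes up 25.4% of the sestrin total in the knockout-labelled arm and 58.9% to 63.6% in wild type.

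Sestrins are stress-induced proteins that restrain mTORC1 and help to keep peroxiredoxins active, and Sesn3 is a FoxO target gene. Sesn3 (chromosome 9, 14080745 to 14130578) had a level of 2699 in the knockout-labelled arm, against 1068 and 1064 in wild-type pair 3/4 and 797 and 768 in pair 1/2. The knockout mean was above all 4 libraries, at 2.53-fold the mean of pair 3/4 and 3.45-fold that of pair 1/2. Its log2 fold change of 1.54 was the largest of the 10 genes in the authors' deposited table, with 11.0% of the 8375 features changing more. Sesn2 had a level of 1169 in the knockout-labelled arm, against 322 and 289 in wild-type pair 3/4 and 271 and 244 in pair 1/2. Its log2 fold change was 2.05 at adjusted p = 0.137 by the authors' deposited table. Sesn1, the most abundant sestrin in wild type, stood at 1319 in the knockout-labelled arm, against 1995 and 2015 in pair 3/4 and 1786 and 1769 in pair 1/2. Sesn1 therefore lay below all 4 wild-type libraries while both relatives lay above them. Sesn3 made up 52.0% of the sestrin total in the knockout-labelled arm and 27.6% to 31.6% in wild type. The summed level of the family was 5187 in the knockout-labelled arm, against 3377 in pair 3/4 and 2818 in pair 1/2.

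Neither superoxide dismutase nor catalase was called, and of these Cat stood farthest from wild type. Sod1 (chromosome 16, 90220987 to 90226569) had a level of 20074 in the knockout-labelled arm, against 16558 and 16328 in wild-type pair 3/4 and 12047 and 12124 in pair 1/2. The knockout mean exceeded the higher wild-type pair by 1.22-fold, less than the 1.36-fold that separated the wild-type pairs. Sod2 (chromosome 17, 13200705 to 13210985) had a level of 733 in the knockout-labelled arm, against 1028 and 1063 in wild-type pair 3/4 and 817 and 807 in pair 1/2. The knockout mean lay below all 4, closest to pair 1/2. Cat (chromosome 2, 103294061 to 103325310) had a level of 1389 in the knockout-labelled arm, against 2923 and 2887 in wild-type pair 3/4 and 2252 and 2114 in pair 1/2. Its level in the knockout-labelled arm was lower than every wild-type library, by 2.09-fold against pair 3/4 and 1.57-fold against pair 1/2. The log2 fold changes in the authors' deposited table were 0.49 for Sod1, -0.34 for Sod2 and -0.87 for Cat, with adjusted p-values of 0.896, 0.942 and 0.712. The extracellular enzyme gene Sod3 had 3 reads in each of pair 3/4 and 0 reads in pair 1/2 and in the knockout-labelled arm.

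Gpx1, a selenium enzyme that removes hydrogen peroxide with glutathione, was the most even of the 10 genes. Gpx1 (chromosome 9, 108241411 to 108242673) had a level of 14785 in the knockout-labelled arm, against 15878 and 15308 in wild-type pair 3/4 and 14741 and 15034 in pair 1/2. The knockout mean fell within the wild-type range, and 95.7% of the 8375 features had a larger change. The log2 fold change was -0.04 and the adjusted p 1 in the authors' deposited table. Gpx4, which protects membranes from lipid peroxides, also lay within its wild-type range, at 2393 in the knockout-labelled arm, against 2767 and 2740 in pair 3/4 and 2064 and 2207 in pair 1/2. Gpx3, the plasma enzyme, had 529 normalised counts in the knockout-labelled arm, 414 in pair 3/4 and 95 in pair 1/2. Gpx8 had 265 normalised counts in the knockout-labelled arm, 224 in pair 3/4 and 92.3 in pair 1/2. Gpx7 had 196 normalised counts in the knockout-labelled arm, 366 in pair 3/4 and 243 in pair 1/2. Gpx2, Gpx5 and Gpx6 had 0 reads in every library and in the knockout-labelled arm.

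Txnip, itself a FoxO target and the gene with the forkhead letters in its promoter window, had the widest gap between wild-type pairs after Foxo1. Txnip (chromosome 3, 96361880 to 96365780) had a level of 15856 in the knockout-labelled arm, against 33281 and 32915 in wild-type pair 3/4 and 20809 and 20766 in pair 1/2. The knockout mean was below all 4 libraries, 2.09-fold lower than pair 3/4 but only 1.31-fold lower than pair 1/2. The log2 fold change was -0.77 at adjusted p = 0.774 by the authors' deposited table. Txnip overlaps Gm15441 on the other strand, which had 14.6% of its wild-type count and the same log2 fold change of -0.77 by the authors' deposited table. The overlap covers all of Txnip, so reads of both features cannot be told apart and the shared value is no separate result. Atm (chromosome 9, 53245227 to 53344776) had a level of 494 in the knockout-labelled arm, against 711 and 692 in wild-type pair 3/4 and 893 and 887 in pair 1/2. The knockout mean lay below all 4, and Atm was the sole gene of the 10 that was lower in pair 3/4 than in pair 1/2. Its log2 fold change was -0.69 at adjusted p = 0.812 by the authors' deposited table, and the antisense feature HAG_041005, which overlaps its end, had 15.5% of its wild-type count. The related kinase Atr had 2532 normalised counts in the knockout-labelled arm, 4696 in pair 3/4 and 6918 in pair 1/2. Prkdc, the third kinase of this family in DNA damage signalling, had 4550 normalised counts in the knockout-labelled arm, between the 3822 of pair 3/4 and the 6007 of pair 1/2.

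**Figure D3:**
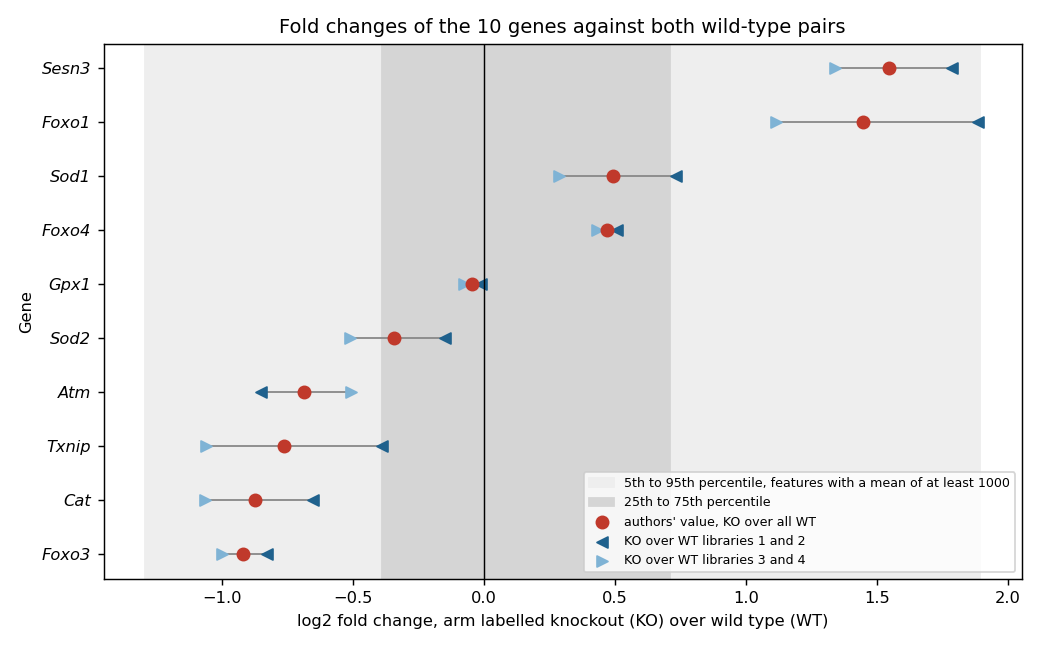
log2 fold change of each gene (x axis), knockout-labelled arm over wild type: red points are the authors' values over all 4 wild-type libraries, and blue triangles set the same knockout mean against each wild-type pair. Grey bands span the 5th to 95th and the 25th to 75th percentile of the 8375 features with a mean of at least 1000, and all 10 genes lie inside the wider band, between -0.92 for Foxo3 and 1.54 for Sesn3.

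The sign of the change was the same against either wild-type pair for all 10 genes. For 9 of them this follows from a knockout mean outside the range of the 4 wild-type libraries, which 84.7% of the 8375 features also showed, so it is no separate result. All 10 lay inside the 5th to 95th percentile of the 8375 well-counted features, -1.29 to 1.89 on the log2 scale, and 6 of the 10 lay outside the 25th to 75th percentile, -0.39 to 0.71. Between the wild-type pairs, 9 of the 10 genes were higher in pair 3/4, Gpx1 with size factors but not with total-count scaling, against 57.7% of the 8332 features with a wild-type mean of at least 1000. The median log2 difference of the 10 was 0.39, against 0.06 over those features. Foxo1 was 1.70-fold and Txnip 1.59-fold higher in pair 3/4, and none of the 10 was 2-fold apart, a gap that 6.11% of the 13089 features averaging 100 or more showed. Within a pair, libraries differed by at most 6.50% of the pair mean. Over these same libraries the immediate early genes were also higher in pair 3/4 and the neutrophil markers lower, by median log2 differences of 4.48 and -2.83, and their part in the differences between pairs was not tested.

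Profiles over the 4 wild-type libraries and the knockout mean were compared among 10854 genes as log2 values centred on each gene's mean. By Euclidean distance, the genes nearest to Foxo1 were Abcb1a, Tcp11l2 and Ptger4, at 0.0928, 0.107 and 0.110. Those nearest to Foxo3 were Iars2, Svip and Gmfg, at 0.0446, 0.0522 and 0.0579, and those nearest to Foxo4 were Daxx, Arl8a and Srp68, at 0.0278, 0.0320 and 0.0478. The profile of Txnip was closest to those of Zfp277, Fam174b and Mr1, at 0.0646, 0.0751 and 0.0771. Sesn3 was closest to Mcfd2, Sepn1 and the glucose transporter gene Slc2a1, at 0.0282, 0.0574 and 0.0653. These distances rest on 5 columns that hold little more than 3 independent values.

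The wider FoxO pathway was described through lists of other genes, counted as measured from an average of 10 normalised counts over both arms. Over all 17684 features at that minimum, 3.72% were called higher and 4.3% lower, and their median by the authors' deposited table was -0.04 on the log2 scale. Of the 223 measured genes of the 7 pathway lists, without repeats, 10 were called higher and 6 lower, which is 7.17%. This share is near the background, so the number of calls over these lists is no result about the pathway. The list of FoxO target genes held 10 calls, and no other list held more than 2. Of 45 measured genes upstream of FoxO, 1 rose and 0 fell, and their median by the authors' deposited table was 0.36 on the log2 scale. The gene that rose was Sgk1, a kinase related to Akt that also phosphorylates FoxO factors. It had 4866 normalised counts in the knockout-labelled arm, 831 in wild-type pair 3/4 and 282 in pair 1/2, and rose 8.71-fold at adjusted p = 0.0106 by the authors' deposited table. For Sgk1 the knockout mean stood above both wild-type pairs, themselves unequal. The kinase gene Akt1, at 19662 normalised counts in the knockout-labelled arm, 11834 in pair 3/4 and 13010 in pair 1/2, was among the most abundant genes of the list with Ywhab and Ywhae, which encode 14-3-3 proteins that hold FoxO factors in the cytoplasm. Ywhae had 19011 normalised counts in the knockout-labelled arm, 23601 in pair 3/4 and 19200 in pair 1/2. Ywhab, which overlaps HAG_024362, had 22635 normalised counts in the knockout-labelled arm, 20485 in pair 3/4 and 17170 in pair 1/2. None of these abundant genes was called.

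Of 47 measured FoxO target genes other than the 10, 7 rose and 3 fell, and their median by the authors' deposited table was 0.80 on the log2 scale. Errfi1, a feedback inhibitor of the EGF receptor, had 5461 normalised counts in the knockout-labelled arm, 155 in pair 3/4 and 102 in pair 1/2, and rose 42.0-fold at adjusted p = 6.9e-06 by the authors' deposited table. The transcriptional repressor Bcl6 had 6794 normalised counts in the knockout-labelled arm, 481 in pair 3/4 and 452 in pair 1/2, and rose 14.5-fold in the authors' deposited table. The cell cycle inhibitor Cdkn1a had 7573 normalised counts in the knockout-labelled arm, 872 in pair 3/4 and 185 in pair 1/2. For Bcl6 both wild-type pairs were alike, while for Cdkn1a they were far apart and still below the knockout mean. The other rises, named after their values were seen, were S1pr1, a receptor for sphingosine-1-phosphate, Pdk4, a kinase that shuts down pyruvate dehydrogenase, the mTORC1 inhibitor Ddit4 and Gadd45b. The rise was 13.9-fold for S1pr1 in the authors' deposited table, 10.7-fold for Pdk4, 9.04-fold for Ddit4 and 8.19-fold for Gadd45b. Normalised counts in the knockout-labelled arm, pair 3/4 and pair 1/2 were 30071, 3020 and 1286 for S1pr1 and 2709, 330 and 171 for Pdk4. They were 16784, 2354 and 1356 for Ddit4 and 2572, 449 and 175 for Gadd45b. Each knockout mean stood above both wild-type pairs, which were themselves unequal. S1pr1 overlaps the feature HAG_025382, whose reads cannot be told apart from its own.

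The 3 targets that fell were Il7r, Rag1 and Klf2, and with a minimum of 100 normalised counts Il7r and Rag1 were no longer counted. Il7r, an interleukin receptor chain, had 0 reads in the knockout-labelled arm, against 108 normalised counts in pair 3/4 and 26.2 in pair 1/2, and its level was at least 68.1-fold lower than wild type (26.5-fold if only the lower pair is taken), taking 3 counts over the arm as the floor. The recombinase gene Rag1 had 1 read in the knockout-labelled arm, against 12.8 normalised counts in pair 3/4 and 36.2 in pair 1/2. The ratio of wild type over the knockout-labelled arm was between 13.0 and 2966 (exact 95% interval, counting error only). This read, this interval and the bounds for Il7r assume as many libraries behind the knockout mean as in wild type. Klf2, a transcription factor of quiescent lymphocytes, had 117 normalised counts in the knockout-labelled arm, 4082 in pair 3/4 and 51.4 in pair 1/2. It fell 17.4-fold in the authors' deposited table with an adjusted p of 0.00056, and overlaps HAG_040063, but the knockout mean was above pair 1/2, so this fall rests on pair 3/4. The most abundant targets per kb in wild type were Gabarapl1, an autophagy gene, the selenoprotein gene Sepp1 and the peroxiredoxin gene Prdx5. Their log2 fold changes in the authors' deposited table were 0.58, -0.05 and 0.56, with adjusted p-values of 0.862, 1 and 0.866.

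**Figure D4:**
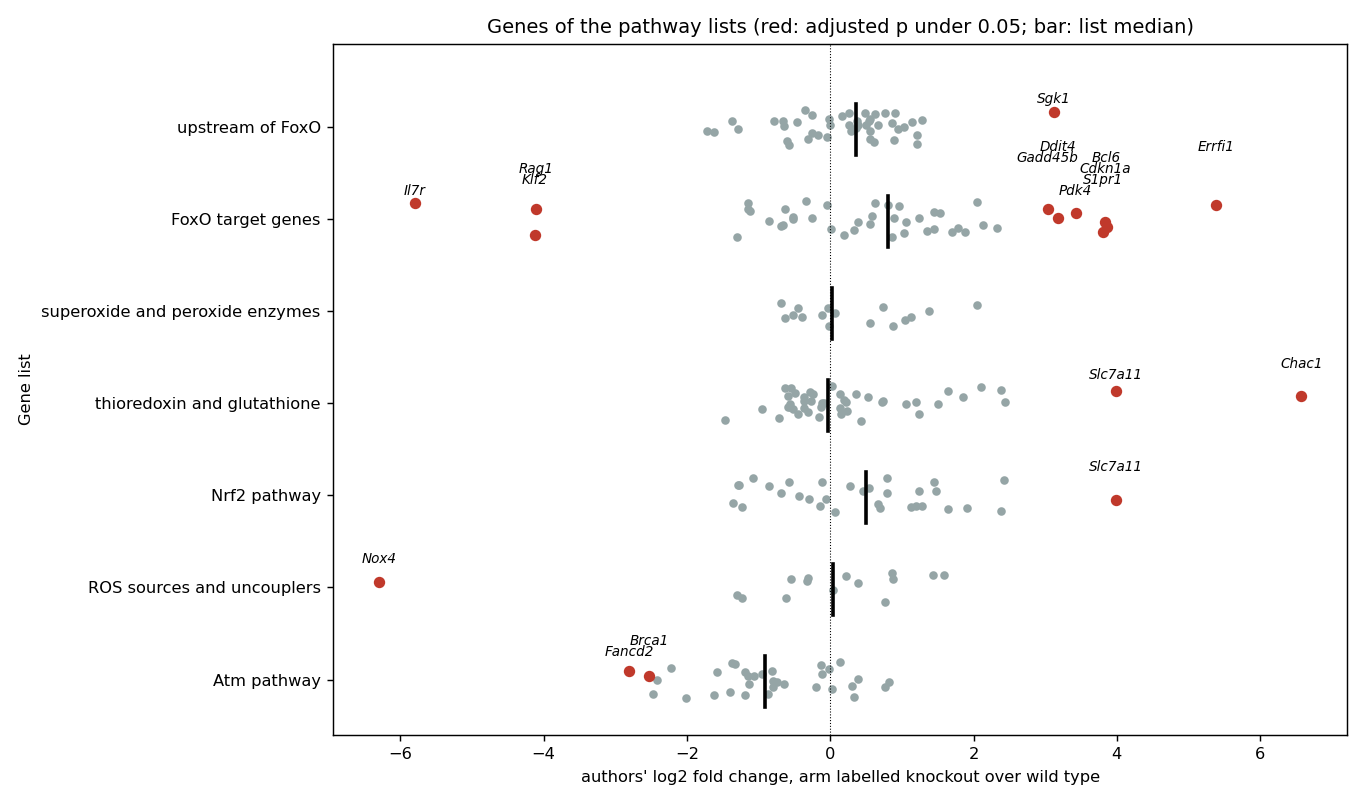
log2 fold change (x axis, the authors' deposited table), knockout-labelled arm over wild type, for each measured gene of 7 pathway lists (rows). Red points had an adjusted p below 0.05, grey points did not, points are spread vertically for legibility, and black bars mark list medians, which run from -0.91 for the Atm pathway to 0.80 for FoxO targets.

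Enzymes that remove superoxide and peroxide, with their helpers, showed no call, the lowest adjusted p in the authors' deposited table being 0.137, for Sesn2. Of 16 measured genes other than the 10, 0 rose and 0 fell, and their median by the authors' deposited table was 0.02 on the log2 scale. Prdx2, Prdx1 and Park7 were the most abundant. Prdx1 had 11962 normalised counts in the knockout-labelled arm, 13497 in pair 3/4 and 9364 in pair 1/2, so its knockout mean fell between the wild-type pairs. Prdx2 had 8000 normalised counts in the knockout-labelled arm, 9426 in pair 3/4 and 7860 in pair 1/2. Park7, a redox-sensitive chaperone, had 4235 normalised counts in the knockout-labelled arm, 6030 in pair 3/4 and 5567 in pair 1/2.

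Among 46 measured genes of the thioredoxin and glutathione systems, 2 rose and 0 fell, and their median by the authors' deposited table was -0.03 on the log2 scale. Chac1, which breaks down glutathione and is induced by amino acid stress, had 1437 normalised counts in the knockout-labelled arm, 4.72 in pair 3/4 and 23.1 in pair 1/2, and rose 95.4-fold at adjusted p = 1.66e-07 by the authors' deposited table. Slc7a11, the cystine importer that feeds glutathione synthesis, had 1935 normalised counts in the knockout-labelled arm, 129 in pair 3/4 and 113 in pair 1/2, and rose 15.8-fold at adjusted p = 0.000872 by the authors' deposited table. For both genes the wild-type pairs were low and the knockout mean far above them. The most abundant genes of the list, Txn1, Gstm1 and Gsto1, had log2 fold changes of 0.36, 1.51 and 0.16 in the authors' deposited table, with adjusted p-values of 0.935, 0.357 and 0.985, and Gstm1 has close relatives with which it can share reads.

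Nrf2 (Nfe2l2) is the main inducible activator of antioxidant genes, held in check by Keap1. Of 32 measured genes in its pathway, 1 rose and 0 fell, and their median by the authors' deposited table was 0.50 on the log2 scale, and the gene that rose was Slc7a11. The ferritin genes Fth1 and Ftl1, which store iron, and the transketolase gene Tkt were the most abundant, with log2 fold changes of 0.67, 0.79 and -0.58 in the authors' deposited table and adjusted p-values of 0.823, 0.759 and 0.861. Ferritin genes have near-identical processed copies, so their counts are uncertain.

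Of 15 measured sources of reactive oxygen species and uncouplers, 0 rose and 1 fell, and their median by the authors' deposited table was 0.04 on the log2 scale. The gene that fell was Nox4, an oxidase that makes hydrogen peroxide. It had 0 reads in the knockout-labelled arm, against 114 normalised counts in pair 3/4 and 78.2 in pair 1/2, and its level was at least 97.0-fold lower than wild type (79.1-fold if only the lower pair is taken). Rac1, Rac2 and the mitochondrial carrier gene Ucp2 were the most abundant, with log2 fold changes of 0.04, -0.30 and 0.76 in the authors' deposited table and adjusted p-values of 1, 0.950 and 0.777.

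The list around Atm had the lowest median of the 7. Of 34 measured genes, 0 rose and 2 fell, and their median by the authors' deposited table was -0.91 on the log2 scale, and 27 of the 34 were negative. The share of all features with a negative change is not given here. Their median was -0.04 over the 17684 features averaging 10 or more and 0.15 over the 8375 averaging 1000 or more. With 4.3% of the 17684 called lower, 2 calls among 34 genes are near the background. Fancd2, which works in the repair of DNA crosslinks, had 225 normalised counts in the knockout-labelled arm, 1309 in pair 3/4 and 1866 in pair 1/2, and fell 6.98-fold at adjusted p = 0.0242 by the authors' deposited table. Brca1, which acts in repair by homologous recombination, had 499.6 normalised counts in the knockout-labelled arm, 2244 in pair 3/4 and 3524 in pair 1/2, and fell 5.76-fold at adjusted p = 0.0484 by the authors' deposited table. Both were lower than either wild-type pair. The most abundant members, Smc1a, Trp53 and the histone gene H2afx, had log2 fold changes of -0.13, -0.02 and -0.87 in the authors' deposited table, with adjusted p-values of 0.990, 1 and 0.712.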

How the data were processed

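PolyA RNA of freshly sorted HSCs was sequenced from TruSeq RNA libraries, a kit that as named keeps no strand. Whole read counts per feature and library are as deposited by the authors. The sources used here name no aligner or counting tool; mm9 and DESeq come from the submitters' processing notes, with no version. A length-scaled signal, deposited by the authors under an FPKM heading, equals the count per kb divided by 50 for 20187 features and gave exon lengths only. The authors' deposited log2 fold change, judged by the values, is knockout over wild type, and differed by 0.399 from the ratio of their knockout mean signal to normalised wild type. That offset set the knockout mean on the wild-type scale. The deposited p-value was read as adjusted, since many features share a value.

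Another 8 of 30 columns match no sample here and stayed unused. Size factors by median of ratios (0.951, 0.955, 1.048 and 1.065) normalised the wild-type counts, and this scaling was tested on simulated data. No test between arms was run, and a call means an adjusted p below 0.05 in the authors' deposited table. Library agreement was checked by chi-square over features with at least 20 reads. With 0 reads, up to 0.0737 CPM is allowed (3 counts, counting error only). Reads in the knockout-labelled arm were taken as the authors' mean count times the number of wild-type libraries. Bounds and intervals for that arm therefore assume as many libraries behind its mean.

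The 10 genes, 7 pathway lists and 10 marker lists were chosen with earlier results of these data known. Named genes were the 10, called list genes (up to 6 per list by size of change), the 3 most abundant per list and paralogs of the 10, and others are marked in the text. Alternatives were other scalings (edgeR 4.0.16), single libraries left out, either wild-type pair alone, and other minimum levels and thresholds. Python 3.11.15, numpy 2.4.6, pandas 2.3.3 and scipy 1.17.1 were used.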

Additional observations from a re-analysis of the deposited data

How the results depend on the processing

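The sign of each of the 10 fold changes between arms was the same under all 9 alternatives run for it, and 4 were positive each time. Where the knockout mean lay outside all 4 wild-type libraries, leaving out a library or taking either pair alone could not change the sign. Setting both arms to equal totals lowered all features by 0.34 on the log2 scale and moved the median of the 10 genes to -0.53, against -0.19. Scaling wild type by total count moved the median difference between library pairs to 0.32, against 0.39, and under it Gpx1 no longer stood higher in pair 3/4 (-0.002). Without single libraries these medians ranged from -0.23 to -0.16 and from 0.36 to 0.41, and the median level of the 10 from 1282 to 1342. With an adjusted p under 0.1, calls numbered 4 for thioredoxin and glutathione, 3 for Nrf2 and 5 for Atm, and still 0 for the 10 genes. With a minimum of 100 normalised counts, Nox4 dropped out and oxygen species sources had 0. FoxO target calls then numbered 8, against 10, without Il7r and Rag1, which left Klf2 as the only target that fell. The share of all features called at that threshold or at that minimum is not given here, so these counts have no background to be read against. Of 230 alternative values of single genes, 212 moved by at most 1 SD, taken over both pairs for levels and fold changes and over the 4 cross-pair library differences for pair differences, and the 18 others came from equal totals (8) or total-count scaling (10). Leaving out a library or taking either pair alone could hardly move a value by more than an SD so defined. For those settings the count is therefore no check of robustness. Without division by length, 7 of the 10 changed rank, Atm to rank 3. No paired analysis was possible because the labels put samples in 1 group. The labels give 1 biological replicate and the design text duplicates, so whether the wild-type spread is technical or biological is unknown, the spread between knockout libraries was not analysed here, and read depth does not limit these genes.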

Other observations

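The genes below were chosen after their values were seen, and none was called in the authors' deposited table. Arrdc3, an alpha-arrestin of the same family as Txnip, had 12680 normalised counts in the knockout-labelled arm, 2701 in pair 3/4 and 2143 in pair 1/2, and the authors' deposited table gave log2 fold change 2.39, adjusted p = 0.066. Arrdc4, another member of the family, had 4102 normalised counts in the knockout-labelled arm, between the 4541 of pair 3/4 and the 3510 of pair 1/2. The checkpoint kinase gene Chek1 had 336 normalised counts in the knockout-labelled arm, 1511 in pair 3/4 and 2096 in pair 1/2, and the authors' deposited table gave log2 fold change -2.41, adjusted p = 0.063.

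Within the Nrf2 list, both signs were seen among well-known targets. Nfe2l2 had 15009 normalised counts in the knockout-labelled arm, 6062 in pair 3/4 and 4672 in pair 1/2, and Txnrd1, thioredoxin reductase, had 28497 in the knockout-labelled arm, 9295 in pair 3/4 and 8968 in pair 1/2. Hmox1, which degrades haem, had 228 normalised counts in the knockout-labelled arm, 460.5 in pair 3/4 and 613 in pair 1/2, and Nqo1, a quinone reductase, had 325 in the knockout-labelled arm, 833 in pair 3/4 and 544 in pair 1/2. The log2 fold changes in the authors' deposited table were 1.48 for Nfe2l2, 1.64 for Txnrd1, -1.23 for Hmox1 and -1.08 for Nqo1.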
